A study of Homo sapiens with 2 samples.

Results

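Of the 20037 protein-coding genes of the RefSeq table for GRCh38, 44 encode enzymes that add acyl groups to lysine, enzymes that remove them, or proteins that bind them, and the lactylation signal at these 44 genes is described here. They were chosen by function and comprise 13 writers, 18 erasers (11 histone deacetylases and 7 sirtuins) and 13 readers. The signal comes from CUT&Tag of CAL27 cells, a long-standing cultured line from a human oral squamous cell carcinoma. In that assay an antibody, here one that recognises lactyllysine on any protein, brings a Tn5 transposase fused to protein A, which inserts adapters into nearby DNA. There were 2 libraries, 1 of cells given no treatment and 1 of cells given 10 mM lactate for 24 hours, with no difference in line or antibody stated. A gene was called marked when a called region overlapped the stretch from 1 kb before to 1 kb after either end of the gene.

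Writers such as p300 and its paralogue CBP transfer an acetyl group to lysine, and several of them have also been proposed to transfer lactyl groups. Erasers remove acyl groups: the histone deacetylases use a zinc ion and the sirtuins use NAD, and class I deacetylases and some sirtuins are known to act on lactyllysine in vitro. Readers hold the modified lysine in a bromodomain, a double PHD finger or a YEATS domain, so the 3 classes together set, remove and recognise acyl marks on histones and other proteins.

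The 2 libraries held 15696147 and 15120031 tags, and 43452 and 50147 regions on the nuclear chromosomes, for untreated and lactate in that order. With 1 library per group no difference has a replicate check and no test was made; intervals are 95% and cover counting error only. Both deposited lists conflict with their labels, since their headers' run name and input as well as all peak names point to the other sample. The sample labels were followed, hence the terms untreated-labelled and lactate-labelled library, and each direction below would turn if the lists were swapped. No library without antibody was used, so cutting of open chromatin by the transposase cannot be told apart from lactylation. The cell type was checked against marker genes: 6 and 7 of 8 squamous epithelial genes held a region at an end or inside, as did 8 and 9 of 12 genes that define other cell types, so the signal at these genes does not identify the line.

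Most of the 44 genes carried a region at an end. In the untreated-labelled library 32 were marked (72.7%, exact Clopper-Pearson interval 57.2 to 85.0), where 43.5% of all protein-coding genes were. In the lactate-labelled library 34 were marked (77.3%, 62.2 to 88.5), against 49.5% of all. Both libraries marked the same 29 members, and 39.8% of all genes were marked in both. KAT2B, NCOA2, HDAC8, SIRT6, BRD7, MLLT1 and YEATS2 were marked in neither (15.9% of members, 46.8% of all genes). Writers stood at 10 and 9 of 13, histone deacetylases at 8 and 10 of 11, sirtuins at 6 and 6 of 7, and readers at 8 and 9 of 13. With classes this small the intervals overlap throughout (46.2 to 95 for writers and 31.6 to 86.1 for readers in the untreated-labelled library), and no order of the classes can be read from them. Nor was the order of the libraries firm: with the 21726 regions of highest fold taken from each list, 20 members were marked in the untreated-labelled library and 19 in the lactate-labelled one (45.5% and 43.2%, beside 27.3% and 28.8% of all genes).

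**Figure D1:**
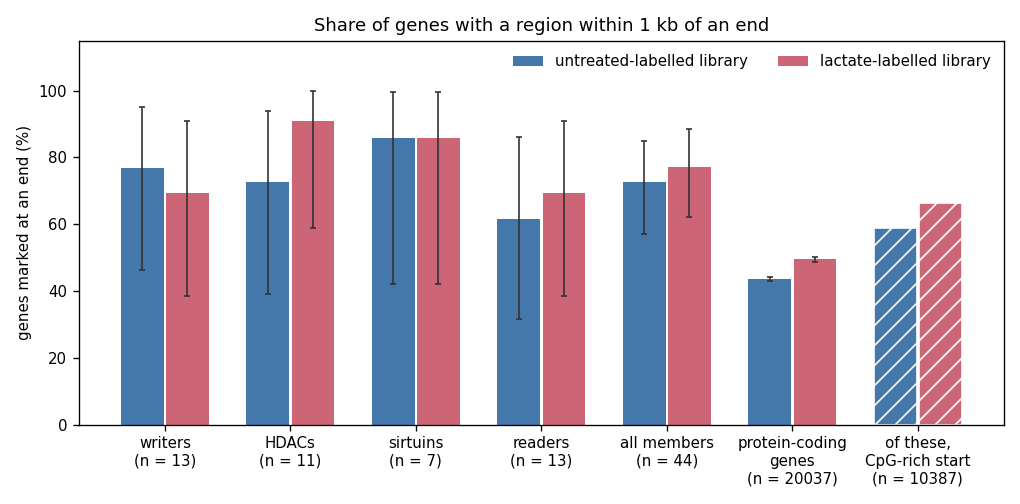
Percent of genes with a region within 1 kb of an end, by class and library; bars start at 0, lines are exact 95% intervals for counting error, and hatched bars show the 10387 protein-coding genes whose start is rich in CpG. The shares of all 4 classes lie above the 43.5% and 49.5% of all protein-coding genes, but most of their intervals hold these values. The interval lies above them only for writers in the untreated-labelled library (from 46.2) and histone deacetylases in the lactate-labelled one (from 58.7). For readers and sirtuins it holds the share of all genes in both libraries. The intervals of the classes also overlap each other.

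The strength of the regions at the members was near that of other marked genes. Strength is given as the authors' own fold enrichment, the pileup of tags at a summit over the local background with 1 added to both, which ranks regions within a list. The median of the highest gene-end fold was 5.25 and 5.46 over the marked members and 5.14 and 5.49 over all marked protein-coding genes. At a fold of at least 5, 18 and 21 members were marked (40.9% and 47.7%), where 23.3% and 30.3% of all genes were.

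**Figure D2:**
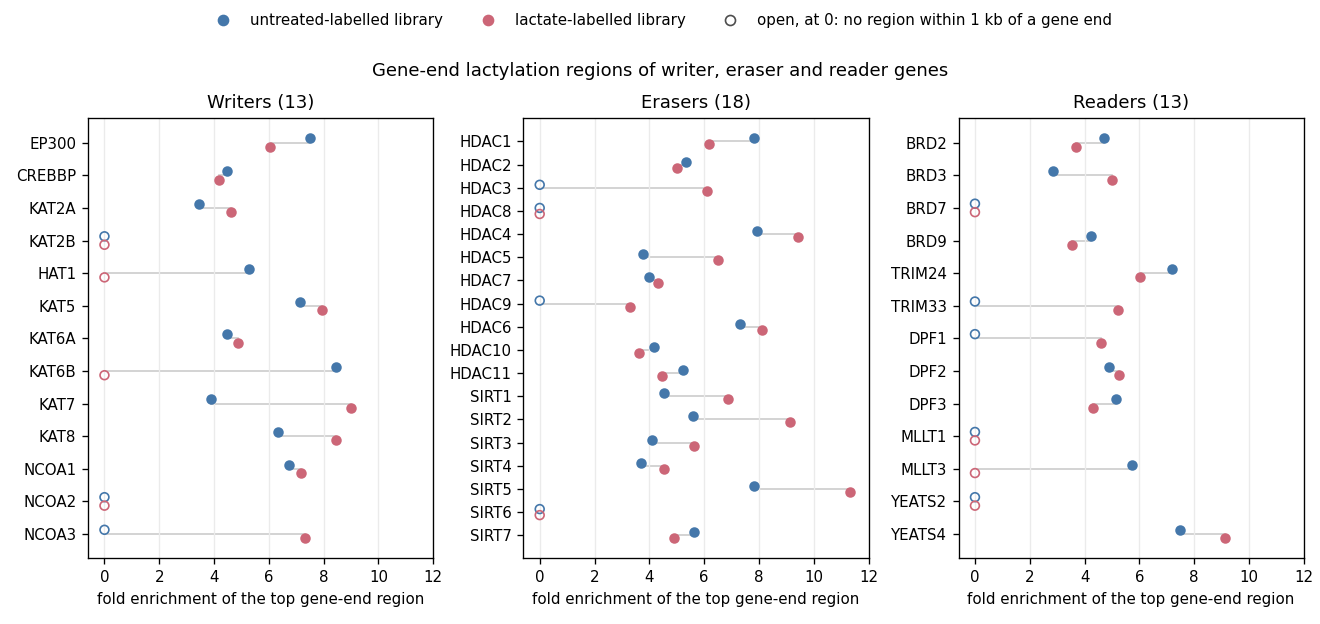
Highest gene-end fold enrichment of each member (horizontal axis) in both libraries; open circles at 0 stand for no region within 1 kb of an end. Folds of marked members run from 2.86 at BRD3 to 11.33 at SIRT5, and 7 members are open in both libraries.

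Among the writers marked in both libraries, KAT5 carried the most tags at its start. KAT5 encodes TIP60, the catalytic subunit of the NuA4 complex, which acetylates histone H4 and ATM. Its region lay at chr11:65711892-65712962 in the untreated-labelled library with a pileup of 58 tags and a fold of 7.14, and at chr11:65711892-65712843 in the lactate-labelled library with 67 tags and a fold of 7.93. Both regions covered the 150 bases before the start of KAT5. HDAC4 and YEATS4 were the eraser and reader of highest fold at their starts in both libraries. Regions covered 146 and 147 of the 150 bases for HDAC4, and 150 in both libraries for YEATS4. In the untreated-labelled library the HDAC4 bases lay in a region of 16 tags and fold 5.25 (chr2:239401596-239401795). The highest HDAC4 region there, of 25 tags and fold 7.93, lay beside them. The 3 stretches follow from RefSeq GRCh38.p14, 5′ to 3′ on the strand of the gene, and capitals mark short motifs found on either strand. They span chr11:65712102-65712251 (plus strand), chr2:239401650-239401799 (minus) and chr12:69359593-69359742 (plus).
KAT5: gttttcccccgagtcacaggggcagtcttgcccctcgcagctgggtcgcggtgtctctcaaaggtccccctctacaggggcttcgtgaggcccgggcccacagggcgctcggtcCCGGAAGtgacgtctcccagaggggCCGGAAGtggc
HDAC4: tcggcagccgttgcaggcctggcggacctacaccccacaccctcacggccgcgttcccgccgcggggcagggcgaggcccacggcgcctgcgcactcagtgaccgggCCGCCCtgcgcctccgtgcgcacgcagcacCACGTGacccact
YEATS4: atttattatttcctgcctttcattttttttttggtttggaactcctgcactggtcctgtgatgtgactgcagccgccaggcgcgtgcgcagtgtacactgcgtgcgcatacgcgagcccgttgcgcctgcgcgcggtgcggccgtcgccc
KAT5 holds the ETS-type motif CCGGAAG at 2 places, HDAC4 a GC box and an E box, and YEATS4 none of the 8 motifs searched.

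EP300 and CREBBP encode p300 and CBP, transcriptional coactivators that acetylate many histones and factors. The EP300 region, chr22:41091301-41091840 in the untreated-labelled library, held 23 tags and a fold of 7.50, and the lactate-labelled library gave 21 tags and 6.04. Its summits lay at -923 and -952 bp from the annotated start, which is upstream, and EP300 was not marked within 0.5 kb. CREBBP had weaker regions next to its start, of 12 and 13 tags and folds of 4.48 and 4.19. Both differences lay within counting error: the ratio of tags per 1000000, lactate-labelled over untreated-labelled, was 0.948 (0.499 to 1.79) for EP300 and 1.12 (0.473 to 2.70) for CREBBP.

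The highest ratios between the libraries among writers were at KAT7 and KAT8, of the MYST family. KAT7, the HBO1 acetyltransferase of histone H3 and H4, had 2 weak regions at its start in the untreated-labelled library (11 and 10 tags, folds 3.90 and 3.69) and 1 of 24 tags and fold 8.99 in the lactate-labelled library. The window of that region also holds an end of FAM117A. KAT8, the MOF enzyme that acetylates H4 lysine 16, was marked at both ends: the region at the lower end had 26 and 42 tags (folds 6.34 and 8.43) and the one at the upper end 30 and 55 tags (4.01 and 6.48), with BCKDK and PRSS8 as neighbours. KAT6A, a histone H3 acetyltransferase, had a region of 9 tags (fold 4.46) in one library and of 11 tags (4.88) in the other, 88 bp apart, so it was marked in both without a shared region. KAT6B, its paralogue, held the gene-end region of highest fold among writers in the untreated-labelled library, at chr10:74825912-74827016 with 52 tags and a fold of 8.47. The lactate-labelled library had 78 tags and a fold of 9.83 over nearly the same bases, chr10:74825979-74827016, but that region began 43 bp beyond the window, so KAT6B counts as marked in the untreated-labelled library alone although both libraries held the region. It covers a start inside the gene, with a higher fold than KAT5 in both libraries.

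The remaining writers differed in where the signal lay. KAT2A (GCN5, of the SAGA complex) had no region at its start in either library; its regions, at most 18 tags (fold 3.44) and 28 tags (4.63), lay at its other end, next to DHX58. Its paralogue KAT2B (PCAF) had no gene-end region and 2 regions inside in each library, the highest of 13 tags in both. NCOA1, a coactivator of nuclear receptors, was marked before its start with 17 and 23 tags (folds 6.72 and 7.19), while NCOA2 had none at an end and 3 and 8 regions inside. HAT1 and NCOA3 were marked in 1 library alone and are described with their sequences below.

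HDAC1 had the highest gene-end fold of the class I deacetylases, whose members HDAC1 and HDAC2 sit in the SIN3, NuRD and CoREST complexes. Its region covered the start (chr1:32291814-32292131) with 32 tags and a fold of 7.82 in the untreated-labelled library and 26 tags and 6.16 in the other. HDAC2 had 16 and 15 tags at its start (folds 5.35 and 5.00). HDAC3 was marked in the lactate-labelled library alone. HDAC8, on the X chromosome, had no gene-end region and 1 region inside, shared by both libraries (11 and 10 tags, folds 5.96 and 5.57), and was 1 of 2 members whose start is poor in CpG. At the shared gene-end regions of class I genes the ratios of tags per 1000000 were 0.843 (0.483 to 1.46) for HDAC1 and 0.973 (0.448 to 2.1) for HDAC2.

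Class II and IV deacetylases were marked throughout, apart from HDAC9 in the untreated-labelled library. HDAC4, which shuttles between nucleus and cytoplasm and represses MEF2 targets, had 25 and 34 tags near its start (folds 7.93 and 9.41), within 86 bp of the start of its antisense gene HDAC4-AS1. HDAC6, the cytoplasmic tubulin deacetylase, had 25 and 28 tags at an annotated start (7.30 and 8.10). HDAC5 had 12 tags (fold 3.76) and 23 (6.52), a ratio of 1.99 (0.95 to 4.39), so the difference lay within counting error. HDAC7 was marked at the end away from its start, beside SLC48A1, with 30 and 35 tags. HDAC10, a polyamine deacetylase, had folds of at most 4.18 and 3.62, and HDAC11, of class IV, had 13 and 11 tags at its start (5.22 and 4.48).

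Sirtuins were marked at 6 of 7 genes in each library. SIRT5, a mitochondrial enzyme that removes succinyl and malonyl groups, held the highest gene-end fold of all 44 genes, 11.33 with 45 tags in the lactate-labelled library, which put it in the top 0.706% of marked genes there. That region, chr6:13615121-13615790, lies at the end of SIRT5 away from its start, with its summit 36 bp from the start of NOL7; the untreated-labelled library had 20 tags and a fold of 6.25 there. At its own start SIRT5 had 29 and 33 tags (7.81 and 7.73). SIRT2, a mainly cytoplasmic deacetylase, had 25 and 41 tags (5.58 and 9.13) in regions that cover its start and that of NFKBIB. The summits lay at -251 and -229 bp from the SIRT2 start and 100 and 122 bp from the NFKBIB start. These regions cannot be assigned to SIRT2 alone. SIRT1, the nuclear enzyme that deacetylates p53, had 13 and 20 tags (4.55 and 6.86), and SIRT3, the main mitochondrial deacetylase, had 12 and 14 tags (4.11 and 5.64) beside PSMD13. SIRT4 had 27 and 37 tags (3.69 and 4.53) and SIRT7 had 29 and 30 (5.64 and 4.89). SIRT6, a nuclear deacetylase of histone H3, had no region at an end or inside in either library, and its nearest regions lay 1181 and 1214 bp from an end.

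Among the readers, YEATS4 (GAS41, of the SRCAP and TIP60 complexes) had the highest gene-end fold in both libraries, with 24 and 30 tags at its start and folds of 7.49 and 9.12. TRIM24, which reads histone H3 with a PHD finger and bromodomain, followed with 20 and 19 tags (7.19 and 6.02). BRD2, a BET protein, had the most gene-end tags of the readers, 40 and 42, on a high background (folds 4.70 and 3.68). Its relative BRD3 had 10 and 19 (2.86 and 5.00). BRD9 had 14 and 13 tags (4.24 and 3.54) in regions that cover its own start and that of TRIP13. DPF2, a BAF subunit proposed to read lactyllysine, had 19 and 24 tags at its start (4.90 and 5.27). DPF3 had a shared region of 14 and 15 tags on the start side (folds 4.21 and 4.32) and 26 and 19 tags at its other end (5.13 and 3.97). The untreated-labelled library had a further DPF3 region nearer the start, of 16 tags and fold 4.80, which no lactate-labelled region overlapped. BRD7, a PBAF subunit, had no region at all, and MLLT1 (ENL) and YEATS2 had regions only inside. The only annotated start of YEATS2, which lies inside the gene, is poor in CpG, as is that of HDAC8.

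In all, 8 members were marked in 1 library alone. They were HAT1, KAT6B and MLLT3 in the untreated-labelled library, where 3.74% of all protein-coding genes were marked alone, and NCOA3, HDAC3, HDAC9, TRIM33 and DPF1 in the lactate-labelled library, where 9.7% were. These 5 and 3 members are 11.4% and 6.82% of the 44. The 150 bases before the start of each gene are shown so that the calls can be set beside the sequence; for KAT6B it is the start inside the gene that the region covers. All are RefSeq GRCh38.p14, 5′ to 3′ on the gene's strand, with motifs on either strand in capitals.
HAT1: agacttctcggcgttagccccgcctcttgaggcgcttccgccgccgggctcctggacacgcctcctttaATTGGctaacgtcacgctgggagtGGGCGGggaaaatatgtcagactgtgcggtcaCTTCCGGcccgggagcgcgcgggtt
KAT6B: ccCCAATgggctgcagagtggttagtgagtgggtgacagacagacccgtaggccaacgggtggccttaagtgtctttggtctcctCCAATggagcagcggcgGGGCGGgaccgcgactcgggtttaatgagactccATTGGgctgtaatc
MLLT3: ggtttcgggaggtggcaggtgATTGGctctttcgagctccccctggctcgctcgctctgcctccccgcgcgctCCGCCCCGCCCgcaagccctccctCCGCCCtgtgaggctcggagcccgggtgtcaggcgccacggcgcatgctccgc
NCOA3: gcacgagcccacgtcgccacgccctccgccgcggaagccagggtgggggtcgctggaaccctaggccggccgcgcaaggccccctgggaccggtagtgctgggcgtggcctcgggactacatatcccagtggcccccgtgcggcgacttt
HDAC3: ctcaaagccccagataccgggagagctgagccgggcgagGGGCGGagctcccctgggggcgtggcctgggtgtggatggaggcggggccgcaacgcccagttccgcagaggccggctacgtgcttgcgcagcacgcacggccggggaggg
HDAC9: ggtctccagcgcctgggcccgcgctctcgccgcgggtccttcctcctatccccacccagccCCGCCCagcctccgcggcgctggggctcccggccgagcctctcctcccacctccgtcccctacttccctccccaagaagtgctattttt
TRIM33: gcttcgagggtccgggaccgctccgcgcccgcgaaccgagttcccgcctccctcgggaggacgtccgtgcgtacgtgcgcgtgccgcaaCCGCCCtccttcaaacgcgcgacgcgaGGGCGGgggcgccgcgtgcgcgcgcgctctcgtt
DPF1: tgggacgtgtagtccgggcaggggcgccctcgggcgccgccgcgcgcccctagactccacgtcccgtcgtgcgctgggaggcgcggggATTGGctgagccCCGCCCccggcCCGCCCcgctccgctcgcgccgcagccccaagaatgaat
They lie at chr2:171922311-171922460 (HAT1, plus strand), chr10:74826450-74826599 (KAT6B, plus), chr9:20622500-20622649 (MLLT3, minus), chr20:47501737-47501886 (NCOA3, plus), chr5:141636850-141636999 (HDAC3, minus), chr7:18086675-18086824 (HDAC9, plus), chr1:114511204-114511353 (TRIM33, minus) and chr19:38229696-38229845 (DPF1, minus). The regions covered all 150 bases shown for HAT1, KAT6B, NCOA3, HDAC3, TRIM33 and DPF1, 149 for MLLT3 and 0 for HDAC9. A GC box, GGGCGG, stands in 7 of the 8 and is absent from the NCOA3 stretch. The 8 were picked by their calls, and the share over all genes was not counted for stretches of 150 bases. In the longer promoter entries of 300 bases, 62.3% of member entries and 56.3% of protein-coding ones hold a GC box.

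HAT1, which acetylates newly made histone H4, had 12 tags and a fold of 5.28 at chr2:171922293-171922526. The nearest region of the lactate-labelled library lay 27746 bp away. The HAT1 summit lay at -59 bp from the start of HAT1 and 13 bp from that of LOC105373740, and the region covers both starts. MLLT3 (AF9), a YEATS reader of the super elongation complex, had 19 tags and a fold of 5.75 with no region of the other library within 5 kb. A peak list without a region does not show 0 tags. At a like local background the lactate-labelled library called regions of as few as 7 tags for HAT1 and 9 for MLLT3, so the tags seen were 1.71 and 2.11 times the lowest called.

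The lactate-labelled calls varied more. HDAC3, the catalytic subunit of the NCoR complex, had 32 tags and a fold of 6.09 over its start at chr5:141636796-141637083, which is 2.67 times the lowest pileup called at a like background in the other library (12 tags). Its summit also lay 57 bp from the start of RELL2, and the untreated-labelled library had a region 1456 bp from the other end of HDAC3, so with a 2 kb window HDAC3 was marked in both. NCOA3 had 17 tags and a fold of 7.32 against a lowest call of 7, and TRIM33, an E3 ligase proposed to read lactyllysine, had 14 tags and 5.21 against 8. DPF1 had 18 tags and 4.61 against 10, and HDAC9 had 7 tags and a fold of 3.28, at the lowest pileup called. NCOA3, TRIM33 and HDAC9 had no region of the untreated-labelled library within 5 kb of an end. HAT1, MLLT3, NCOA3 and TRIM33 were the members marked alone under every threshold and window tried.

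At the regions that both libraries called, the members differed between the libraries by about as much as other gene ends did. Tags per 1000000 of the library were compared over 35 shared gene-end regions of 29 members, among them the KAT6B region. Their pooled ratio, lactate-labelled over untreated-labelled, was 1.30 (1.19 to 1.43), and the median was 1.21 with a range of 0.759 to 2.49. Over 7139 shared regions at protein-coding gene ends the pooled ratio was 1.25 and the median 1.23. The ratio was above 1 at 27 of 35 member regions (77.1%) and at 76.1% of the gene-end regions of all genes. By class it was 1.45 (1.24 to 1.70) for writers, 1.31 (1.13 to 1.51) for erasers and 1.09 (0.893 to 1.33) for readers, and each of these intervals holds the pooled value of all gene ends.

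**Figure D3:**
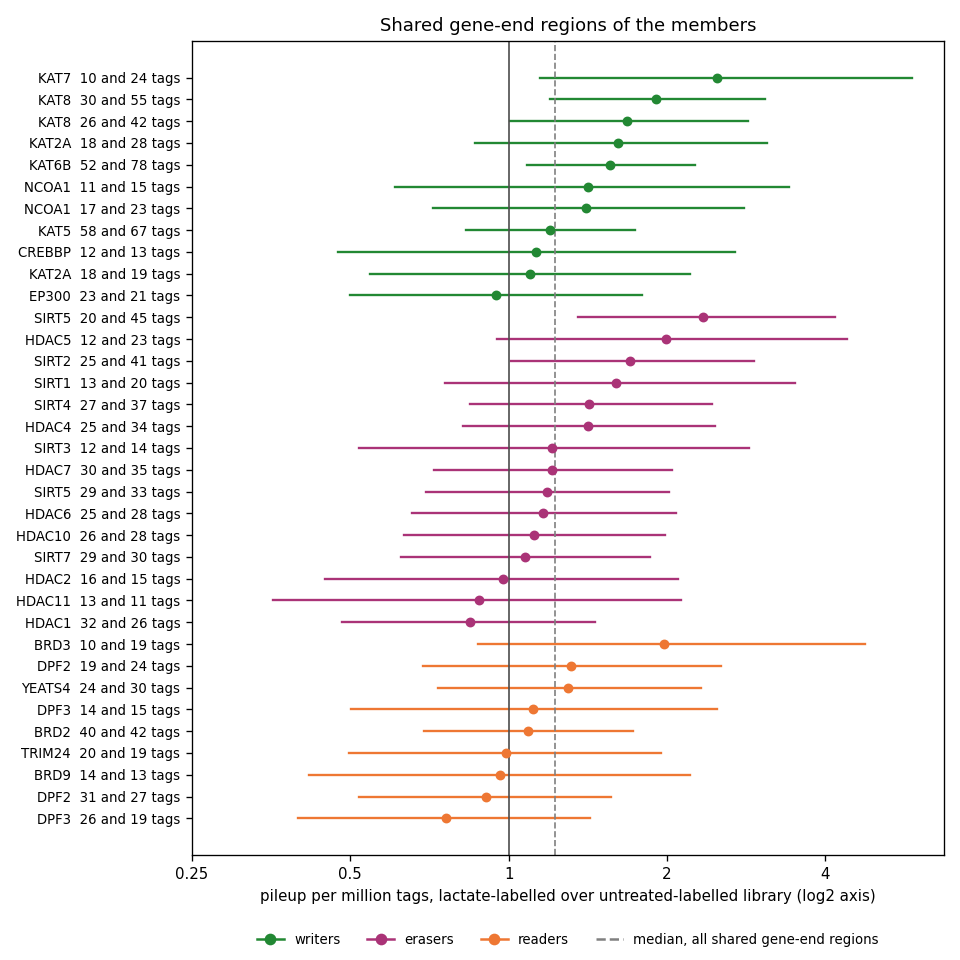
Ratio of pileup per 1000000 tags at each shared gene-end region of the members (log2 axis) with its exact 95% interval for counting error; labels give the tags in the untreated-labelled and lactate-labelled library, the solid line is 1 and the dashed line the median of 1.23. The intervals of 6 regions lie above 1, and that of the SIRT5 region beside NOL7 alone lies above the dashed line.

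Single regions had wide intervals. Of the 35, 6 had an interval above 1 and 0 had one below. They were KAT7 (2.49, 1.15 to 5.84), both regions of KAT8 (1.90, 1.20 to 3.08, and 1.68, 1.00 to 2.85), KAT6B (1.56, 1.08 to 2.26), SIRT2 (1.70, 1.01 to 2.92) and the SIRT5 region beside NOL7 (2.34, 1.35 to 4.18). Only the last had an interval that left out the median of 1.23 over all shared gene-end regions. The intervals carry no correction for the 35 comparisons.

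Among members with an annotated start, more gene-end regions lay on the start side than at the other end. A start was annotated for 38 of the 44 members. Of these, 26 and 28 were marked at a start, 68.4% and 73.7%, where 46.1% and 52% of 15843 genes with a start were. The other end had 10 and 8 regions and the start side 31 in each library. Summits of the start-side regions had a median position of -84 and -60 bp. Of these, 20 and 17 lay within 300 bp of the start, and 25 and 23 lay upstream of it. The window of 1 kb already holds these regions near a gene end, and positions over all genes were not counted. Of 61 and 60 regions inside members with a start, 8 and 7 lay within 1 kb of a start.

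**Figure D4:**
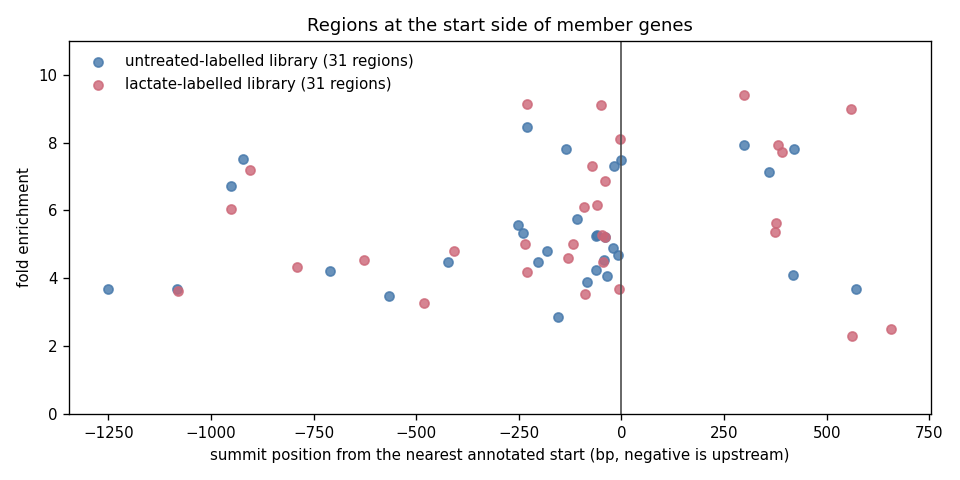
Summit position from the nearest annotated start (horizontal axis, bp, negative is upstream) against fold enrichment for the 31 start-side regions of each library. Of the points, 20 and 17 lie within 300 bp of the start. The farthest lie upstream, at -1250 bp (SIRT4) in the untreated-labelled and -1080 bp (HDAC10) in the lactate-labelled library. The EP300 region and the stronger NCOA1 region of each library also stand near 1 kb upstream.

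A region at the far end that was not at a start of the same gene was found at 8 and 6 of the 38 members, 21.1% and 15.8%, where 5.14% and 6.39% of genes had one. Many of these regions also lay within 1 kb of an end of a neighbour. The neighbours were DHX58 for KAT2A, SLC48A1 for HDAC7, TUBGCP6 for HDAC10, NOL7 for SIRT5 and TIGD3 for DPF2. For KAT5 it was RNASEH2C, in the lactate-labelled library only. The far-end regions of KAT6B and DPF3, and that of KAT5 in the untreated-labelled library, had no such neighbour. At SIRT5, KAT5 (in the lactate-labelled library) and HDAC10 the summit lay within 300 bp of the start of the neighbour, at distances of 36, 250 and 68 bp, so the region cannot be assigned to the member.

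The starts of the members are rich in CpG. The CpG ratio, observed over that given by the C and G content, was at least 0.6 in the 300 bases around the outermost start of 36 of 38 members (94.7%) and of 65.6% of 15843 protein-coding genes, with medians of 0.877 and 0.761. Among genes above 0.6, 58.9% and 66.5% were marked at an end, and 27 and 29 of the 36 members were (75% and 80.6%). The share of these 36 thus stood 16.1 and 14.1 percentage points above that of CpG-rich genes. The share of all 44 members stood 29.2 and 27.8 points above that of all genes. No interval was computed for the 36. The intervals of the 44, 57.2 to 85.0 and 62.2 to 88.5, hold the 58.9% and 66.5% of CpG-rich genes. That does not compare like sets, since the 44 include HDAC8, YEATS2 and 6 members without a promoter entry. HDAC8 and YEATS2, the members below 0.6, were marked in neither library. For YEATS2 the ratio was taken at its only annotated start, chr3:183710239, which lies inside the gene and not at its lower end, chr3:183697797. That ratio does not describe the gene end where a mark was sought. This grouping by CpG was added after the calls were seen.

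Across the 61 promoter entries of the 38 members, the GC box GGGCGG was found on either strand in 38 (62.3%) and in 56.3% of protein-coding promoter entries. The CCAAT box was found in 31.1% and 34.7%, the E box CACGTG in 6.56% and 8.34%, and the ETS motif CCGGAAG in 13.1% and 12.8%. The CRE letters TGACGTCA were found in 1.64% and 2.26%, the AP-1 letters TGANTCA in 6.56% and 6.15%, and TATAAA in 3.28% and 9.47%. The NRF1 site, searched as a palindrome, was found in 3 entries (4.92% against 1.5%), from SIRT6 and from overlapping entries of SIRT5. Entries of the same gene can overlap, so the same letters can be counted more than once in all these shares. Matches overlap only in the MLLT3 stretch among those shown, where 2 GC boxes share a base, and a match describes the letters and not a bound factor.

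Inside the genes, the members held about as many regions per length as all genes did. In all, 68 regions in 22 members lay inside in the untreated-labelled library and 74 in 21 members in the other, 50% and 47.7% of members, where 35.5% and 38.2% of all genes had one. The members are longer (median 43.9 kb against 24.1 kb), and per 100 kb of gene they held 1.43 and 1.56 regions against 1.34 and 1.57. By class the counts were 10 and 19 for writers, 33 and 28 for erasers and 25 and 27 for readers. Per 100 kb of gene the classes differed: 0.623 and 1.18 for writers, 1.73 and 1.47 for erasers and 2.02 and 2.18 for readers. No interval was computed for these densities. The order of the libraries in erasers turned at a fold of at least 5, with 9 and 16.

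**Figure D5:**
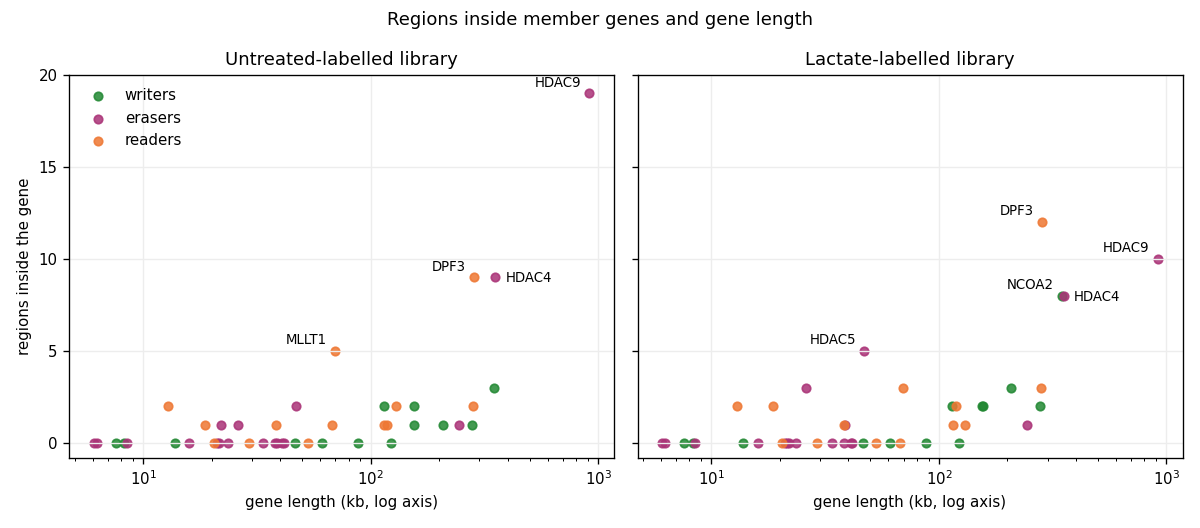
Number of regions inside each member gene against gene length (kb, log axis) in both libraries, coloured by class. The highest counts are in long genes, and HDAC9, the longest, held 19 in the untreated-labelled and 10 in the lactate-labelled library.

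The long genes with many inside regions differed in how many the libraries shared. HDAC9, a class IIa deacetylase gene of 915.6 kb, held 19 and 10 regions, of which 4 and 3 overlapped a region of the other library. Its strongest shared region lay at a start inside the gene, with folds of 6.53 and 7.48, and at a fold of at least 5 the gene held 5 and 6, so the order of the libraries turned. DPF3, a BAF subunit gene of 285.1 kb, held 9 and 12, of which 9 and 10 were shared, and its highest, chr14:72643316-72643776, had 42 and 60 tags (9.68 and 11.5). HDAC4 held 9 and 8 with 6 shared in each, the highest at 41 and 33 tags (9.86 and 8.21). Overall 54.4% and 51.4% of the members' inside regions were shared, against 80.9% and 74.5% of those at gene ends. Over all protein-coding genes 68.6% and 58.1% of inside regions and 86.1% and 71.3% of gene-end regions were shared.

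HDAC5 had 2 and 5 regions inside, and the 1 that was shared had 15 and 33 tags (ratio 2.28, 1.21 to 4.53). MLLT1 had 5 and 3, and NCOA2, on chromosome 8, had 3 and 8, of which 2 were shared. YEATS2 had 1 in each library, 644 bp apart, of 10 tags (fold 3.67) and 24 tags (9.06). Sirtuin genes, with a median length of 21.5 kb, held 1 and 0. Members with no region at an end or inside numbered 3 in each library: SIRT6 and BRD7 in both, HDAC3 in the untreated-labelled library and HAT1 in the lactate-labelled one.

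The partners of these proteins were marked about as often. Of 73 genes for subunits of acetyltransferase, deacetylase and reader complexes and for other acyl enzymes, 54 (74.0%) were marked in the untreated-labelled library and 59 (80.8%) in the lactate-labelled one, 50 of them in both. A further 4 and 9 were marked in 1 library alone (5.48% and 12.3%), and 10 in neither (13.7%). Of all protein-coding genes, 43.5% and 49.5% were marked, 3.74% and 9.7% alone and 46.8% in neither.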

How the data were processed

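CUT&Tag for lactyllysine was deposited as 1 peak list per library, untreated and 10 mM lactate for 24 hours. The build hg38 and the tools MACS2 2.1.0, BWA and fastp 0.20.0 are named in the submitters' processing notes. Per the file headers, MACS 2.1.0.20150420 ran on each library apart and without a control (q of 0.05, tags shifted by -100 bp and extended by 200 bp). The authors' deposited columns used are the pileup, a signal in tags at each summit that is not scaled for depth, the fold enrichment, a ratio of pileup to local background after adding 1 to each, and the region's length. No source used here says whether spike-in scaling was applied.

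Summits with the same start and end were joined to 1 region with its highest fold. Gene ends came from the RefSeq table of GRCh38.p14, and strands and starts from its promoter table, which covers 38 of the 44 members. Overlap by at least 1 bp counted as shared. Runs of overlapping regions were compared by pileup per 1000000 tags with exact conditional binomial intervals, and shares have exact Clopper-Pearson intervals at 95%. They cover counting error only, and tags are not independent molecules. The lists used carry no p column, so −log10 p was recomputed from pileup and background for an alternative threshold. The lowest pileup called at a like background and the CpG grouping were added after the calls were seen.

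The members and lists were chosen with earlier results of these data known. All 44 members are accounted for, with values for those marked in 1 library alone or in neither, the 4 highest of each class and library, the 3 with most inside regions of each class, and proposed lactyl writers, erasers and readers. No test was possible between single libraries. Alternatives were windows of 0.5 and 2 kb, stricter thresholds, equal numbers of regions, and the summit instead of the region. The overlap code was checked on planted regions (200 of 200 found) and against exhaustive search (400 of 400 genes equal). Scripts ran in Python 3.11.15 with SciPy 1.17.1, pandas 2.3.3, matplotlib 3.10.9 and numpy 2.4.6.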

Additional observations from a re-analysis of the deposited data

How the results depend on the processing

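Of 112 values of the comparisons under another setting, 68 stayed near the reported value and 44 moved. At a fold of at least 5, 18 and 21 members were marked (untreated-labelled, then lactate-labelled), with 6 writers in the first library, 8 and 10 erasers and 4 and 5 readers, and 6 and 9 members were marked alone (3.59% and 10.6% of all genes). Regions inside then numbered 21 and 33, of which 3 and 8 were in writers, 9 and 16 in erasers and 9 and 9 in readers. Where the recomputed −log10 p had to reach 7, 6 writers were marked in the untreated-labelled library and 5 and 10 members were marked alone (3.68% and 11.1% of all genes), and 32 and 48 regions lay inside, with 4 and 11 in writers, 16 and 16 in readers and 12 and 21 in erasers. With the 21726 regions of highest fold from each list, 20 and 19 members were marked, with 6 writers in the untreated-labelled library, 8 and 9 erasers and 4 readers in the lactate-labelled one. Regions inside were then 24 and 29, with 4 and 6 in writers, 10 and 15 in erasers and 10 and 8 in readers, and 8 and 7 members were marked alone (5.79% and 7.27% of all genes). Inside erasers these 3 settings turned the order of the libraries. These settings keep fewer regions by construction. Counting as alone only members with no region of the other library within 5 kb of an end left 3 in the lactate-labelled library, beside 6.51% of all genes. Divided by the median ratio of all shared regions, 1.18, the pooled pileup ratio of the members was 1.11 instead of 1.30. Over all genes of the table, noncoding ones included, 23.3% and 26.4% were marked. Windows of 0.5 and 2 kb gave 30 and 32, and 34 and 36, marked members (39.4% and 45%, and 49% and 55.1%, of all genes). A member not marked under a setting has no fold there. No paired analysis was possible because each group has 1 library. At pileups of 6 to 78 tags, differences under about the width of the intervals given could not be seen.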

Other observations

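HDAC3 acts inside a corepressor complex built on NCoR, and some genes of that complex were looked at after the values were seen. NCOR1 was marked in both libraries (folds 7.33 and 5.18), as was GPS2 (3.38 and 4.89). TBL1X was marked in the lactate-labelled library alone, with a fold of 5.19, and TBL1XR1 was marked in neither. Of the other deacetylase complexes, the scaffold SIN3A of the SIN3 complex had folds of 7.41 and 8.42. SIN3B (4.30) and SUDS3 (3.18) were marked in the lactate-labelled library alone, and SAP18 and SAP30, of the same complex, in both. RCOR1 (5.24) and KDM1A (5.82), both of the CoREST complex, were marked in the untreated-labelled library alone. RCOR3, a relative of RCOR1, was marked in both (6.35 and 5.99), as were HDAC1 and HDAC2. Of all protein-coding genes, 3.74% were marked in the untreated-labelled library alone and 9.7% in the lactate-labelled one alone. With 1 library per group none of these differences has a replicate check.

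Among partners of the acetyltransferases, KANSL1, which scaffolds the NSL complex of KAT8, had folds of 9.77 and 9.01, and BRPF1, the scaffold that KAT6A and KAT6B share, had 7.33 and 9.94. TRRAP, a subunit shared by the SAGA and TIP60 complexes, was marked in neither library and held no region inside. AARS1, which has been proposed as a lactyltransferase, had 4.63 and 5.07, and AARS2 was marked at no end. ACSS2, which makes acetyl-CoA from acetate, had 6.96 and 8.23. These genes too were named after their values were seen.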
